A study of Mus musculus with 5 samples.

Results

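The protein kinase C (PKC) and protein kinase D (PKD) genes encode serine/threonine kinases, most of which are switched on by diacylglycerol, a messenger made by phospholipase C. Members were taken by symbol from the deposited table of normalized counts: 10 genes (Prkca, Prkcb, Prkcd, Prkce, Prkch, Prkci, Prkcq, Prkcz, Prkd2 and Prkd3) of the 27526 genes it lists. All 10 passed the filter on low counts. Prkd1, a further PKD gene, was followed beside them and did not pass the filter.

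RNA came from Kit-positive leukaemia stem cells of a mouse AML1-ETO9a model, in which a shortened form of the RUNX1-RUNX1T1 (AML1-ETO) fusion drives acute myeloid leukaemia. There were 3 libraries labelled Plcg1 -/- by conditional deletion (deleted 2, 4 and 6) and 2 labelled Plcg1 +/+ (wild-type 1 and 3), all from the same model and labelled Kit-positive. The labels give neither the Cre driver nor the age, sex or number of the mice, nor whether libraries came from separate mice, so each p-value rests on the scatter among these 5 samples, and that scatter may be technical. Gene counts per library were 53384359, 52560713 and 57133771 in the deleted libraries and 37306507 and 51682298 in wild-type. A count of 3 therefore stood for 0.0526 to 0.0723 CPM (read counts scaled to a common depth, on a library size scaled by TMM factors), a limit that covers counting error only.

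PKC isoforms fall into classes by the signals they need. Conventional isoforms (such as Prkca and Prkcb) respond to calcium and diacylglycerol, calcium-independent isoforms (Prkcd, Prkce, Prkch, Prkcq) respond to diacylglycerol without calcium, and atypical isoforms (Prkci, Prkcz) respond to neither and work with polarity proteins. PKD kinases bind diacylglycerol themselves and are switched on through phosphorylation by the calcium-independent PKCs. In blood cells these kinases link antigen, Fc and growth factor receptors to NF-κB, MAP kinase and degranulation.

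Deleted 6 stood apart from the other libraries and departed from its cell type label. Kit reached 672 and 304 CPM in deleted 2 and 4 but 3.08 CPM in deleted 6, against 26.8 and 32.1 CPM in the wild-type libraries. The proliferation marker Mki67 was at 7.76 CPM in deleted 6 and between 165 and 272 CPM elsewhere. All 9 proliferation markers together were at 1571, 1487 and 92.9 CPM in deleted 2, 4 and 6, against 2137 and 2326 CPM in the wild-type libraries. Neutrophil and promyelocyte markers summed to 15407, 17730 and 1401 CPM in deleted 2, 4 and 6 and to 19368 and 21177 CPM in wild-type 1 and 3. Of the deleted 6 sum, 1278 CPM came from Mmp8, which was higher there than in any other library (517 to 1204 CPM). Every other marker of that list had its lowest value in deleted 6, none above the 59.6 CPM of S100a8. Plcg1 itself was at 53.0, 26.9 and 37.1 CPM in the deleted libraries and at 22.1 and 33.99 CPM in wild-type, and a gene total that keeps reads from undeleted exons cannot check the deletion. Directions below therefore follow the labels, and the fold changes of the members and of the related genes named are given with and without deleted 6. Libraries were on lanes 4, 4 and 5 (deleted 2, 4 and 6) and lanes 3 and 4 (wild-type 1 and 3), so lane 4 alone held both labels.

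No PKC or PKD gene passed the genome-wide test across all 5 libraries, although 6 of the 10 had groups that did not overlap in CPM. Prkca, Prkcb, Prkcd, Prkce and Prkcq were higher in every deleted library than in both wild-type libraries, and Prkcz was lower in every one. Among the 16120 genes tested, 22.4% lay above in this way and 23.7% below (10 members: 5 above and 1 below). On counts over gene length rescaled to a common total (TPM, without TMM factors), Prkcb and Prkcq overlapped. Prkcb was at 42.7 TPM in deleted 6 and 49.0 TPM in wild-type 3. Prkcq was at 0.0461 TPM in deleted 6 and 0.0603 TPM in wild-type 1. On that scale Prkci and Prkd3 were lower in every deleted library than in both wild-type libraries. The shares of all genes that separated in TPM were not counted. With total counts in place of TMM, the median log2 fold change of all genes was -0.19. At an adjusted p under 0.05, edgeR (quasi-likelihood) called 0.0% of all genes in either direction, and 0 members. Its unadjusted p was under 0.05 for 3 members that were higher (Prkca, Prkcb and Prkcq), where 9.44% of all genes were higher, and for 1 that was lower (Prkcz), where 5.42% were lower. The members' median log2 fold change, deleted over wild-type, was 0.66, and that of all genes tested was 0.01. The members' median was 0.27 without deleted 6, 0.39 with total counts in place of TMM and 0.15 in lane 4 alone. Without deleted 6, edgeR called Prkca and Prkcq higher and Prkcz lower, where 7.89% of all genes were called higher and 5.07% lower. DESeq2 on all 5 libraries called the same 3 genes, with backgrounds of 5.75% higher and 3.05% lower. The limma-voom fit gives less weight to libraries whose values scatter more around the fit. It called Prkcd and Prkcq higher and Prkcz lower, against backgrounds of 7.63% and 5.87%. Without the filter on low counts Prkcz alone was called, lower, where 0.539% of genes were called higher and 0.38% lower. In lane 4 alone, with 1 wild-type library, Prkcq was called higher (1.26% of all genes higher, 0.779% lower). The smallest p that permuting 3 and 2 libraries exactly allows is 0.1, too large for a call, so single genes were not permuted.

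**Figure D1:**
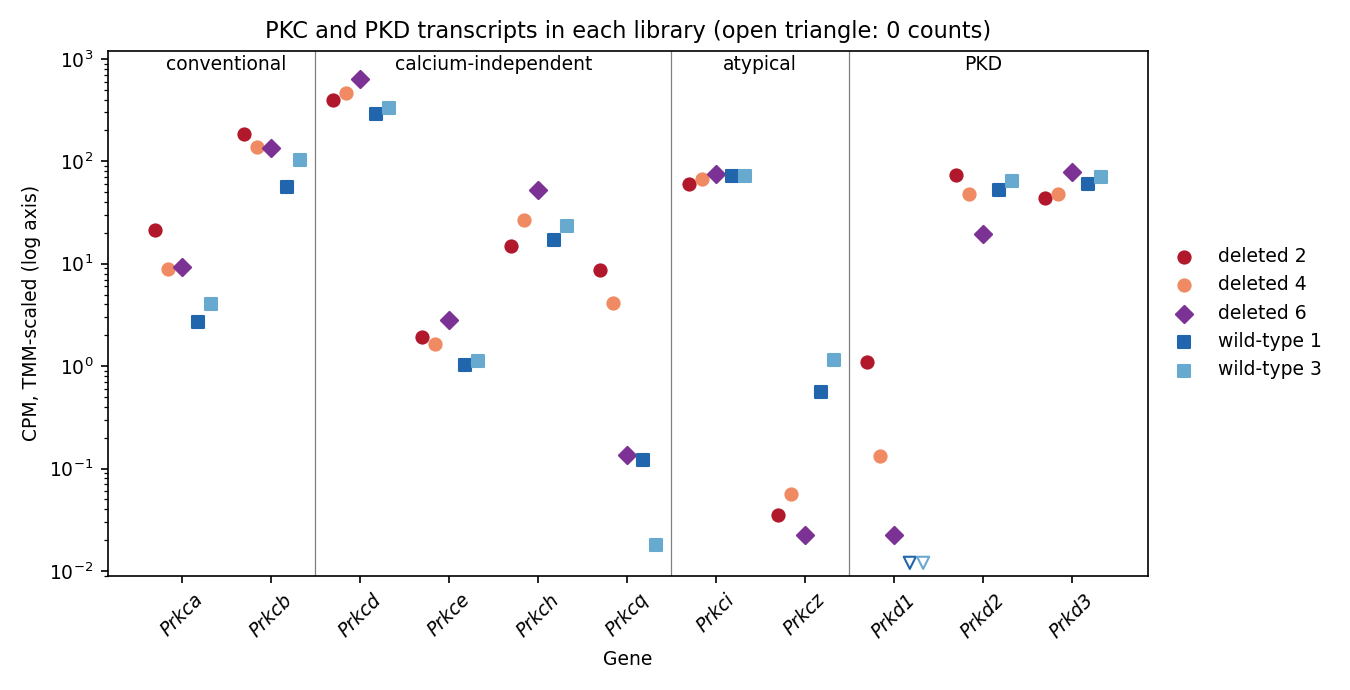
CPM of the 10 members and of Prkd1 in each library, on a log axis, with deleted libraries left of wild-type libraries and open triangles for 0 counts. Prkca, Prkcb, Prkcd, Prkce and Prkcq lie higher in all deleted libraries, Prkcz lies lower, and deleted 6 (diamonds) is the lowest point for Prkd2, at 19.7 CPM, and the highest for Prkch, at 52.8 CPM.

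Compared per transcript length, Prkcd was the leading isoform in every library. Its level was 258, 273 and 275 TPM (counts over the length of the exon union, rescaled to a common total) in deleted 2, 4 and 6 and 185 and 218 TPM in wild-type 1 and 3. That was 54.4% to 69.3% of the length-scaled sum of these 11 genes in the deleted libraries and 57.2% and 54.9% in wild-type. Prkcb, Prkci and Prkd2 came next. Prkcb held 14.3 ± 3.86% of that sum in deleted libraries (SD, n = 3) and 10.2 ± 2.99% in wild-type (SD, n = 2). Prkci held 8.49 ± 0.461% and 12.9 ± 1.70% of the sum, and Prkd2 6.91 ± 4.42% and 11.6 ± 0.109%, in deleted and wild-type libraries. In wild-type the levels of Prkci, Prkd2 and Prkcb, at 46.1 ± 0.625, 41.7 ± 6.42 and 37.6 ± 16.1 TPM (SD, n = 2), lay within their spread. In deleted libraries Prkcb was at 63.2 ± 22.6 TPM, Prkci at 37.0 ± 4.17 TPM and Prkd2 at 31.2 ± 21.9 TPM (SD, n = 3). Prkci and Prkd2, neighbours in that order, did not differ beyond their spread. Prkd3 and Prkch followed, at 15.3 ± 1.63 and 11.9 ± 4.86 TPM in deleted libraries and 21.2 ± 2.69 and 9.65 ± 2.24 TPM in wild-type. Prkca was at 4.76 ± 3.28 TPM in deleted libraries and 1.35 ± 0.398 TPM in wild-type. Prkcq was at 4.43, 1.90 and 0.0461 TPM in deleted 2, 4 and 6 and at 0.0603 TPM or less in wild-type. Prkce and Prkcz were each under 1 TPM in every library.

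**Figure D2:**
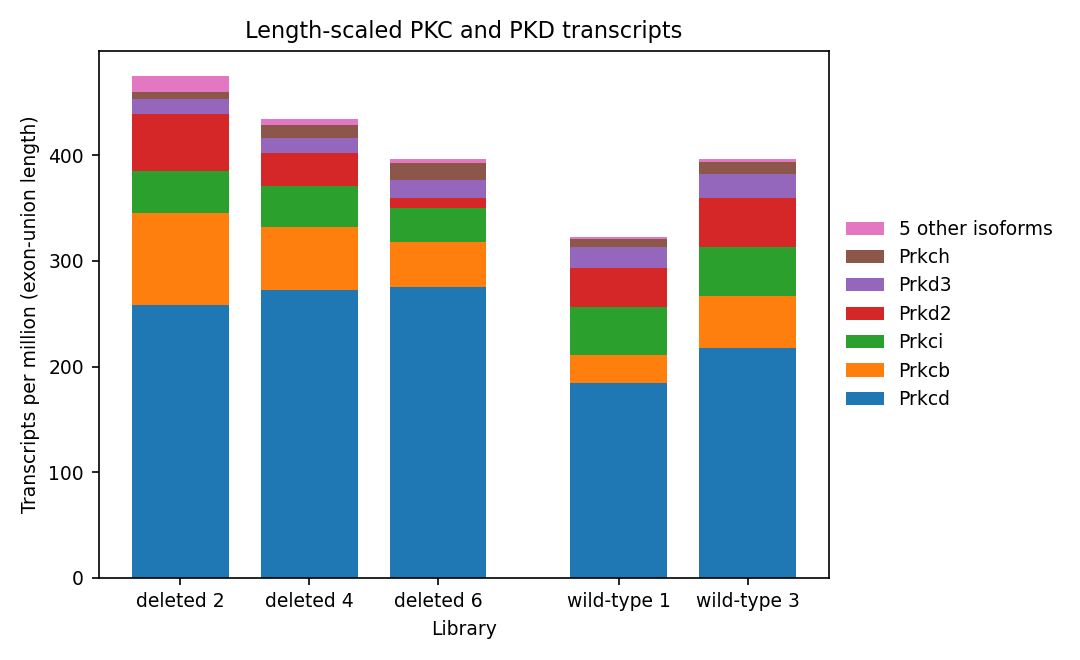
Length-scaled level (TPM) of the 10 members and Prkd1 in each library, stacked by isoform from Prkcd at the bottom, with deleted libraries left of wild-type libraries. The 11 genes summed to 475, 434 and 397 TPM in deleted 2, 4 and 6 and to 323 and 397 TPM in wild-type 1 and 3, and Prkcd was the largest band in each library.

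Prkca and Prkcb, the conventional members, had higher values under the deleted label, and Prkca was called higher without deleted 6. Prkca encodes PKCα, a broadly expressed kinase at the plasma membrane (ENSMUSG00000050965.13; mm10 chromosome 11, 107933387 to 108343928, minus strand). Prkca had 21.1 CPM in deleted 2, 8.95 in deleted 4 and 9.36 in deleted 6, against 2.70 and 4.03 CPM in wild-type 1 and 3. Every deleted library exceeded both wild-type libraries, with deleted 2 furthest. Deleted libraries averaged 13.1 ± 6.90 CPM (SD, n = 3) and wild-type libraries 3.37 ± 0.944 CPM (SD, n = 2), and edgeR gave a log2 fold change of 1.96 ± 0.53 (SE), adjusted p 0.246. Without deleted 6 it was 2.16 ± 0.44 (adjusted p = 0.0260), and between 1.44 and 2.28 with any 1 library left out. Apoh, whose exons overlap Prkca on the opposite strand, had at most 1 count in any library.

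Prkcb encodes PKCβ, the main conventional isoform of B cells and much of the myeloid lineage (ENSMUSG00000052889.10; chromosome 7, 122288751 to 122634402, plus strand). Prkcb had 184 CPM in deleted 2, 139 in deleted 4 and 136 in deleted 6, against 56.6 and 103 CPM in wild-type 1 and 3. Groups did not overlap in CPM, though wild-type 3 lay closer to deleted 6 than to wild-type 1. In TPM, which uses no TMM factors, they did overlap, with deleted 6 at 42.7 and wild-type 3 at 49.0. Deleted libraries averaged 153 ± 27.1 CPM (SD, n = 3), wild-type libraries 79.9 ± 33.02 CPM (SD, n = 2). On the log2 scale edgeR gave 0.94 ± 0.33 (SE) at an adjusted p of 0.307, and leaving out deleted 6 gave 1.03 ± 0.29 at 0.0678. It was 0.57 without wild-type 1 and 1.44 without wild-type 3. Of the B cell markers, Pax5 was at 0 counts in 4 of 5 libraries, and all 7 summed to 0.475 to 7.29 CPM in deleted libraries and 16.7 and 21.8 CPM in wild-type.

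Prkca and Prkcb lay higher in CPM in every deleted library, as did Prkcd, Prkce and Prkcq. The 300 bases around the annotated starts of Prkca and Prkcb, the conventional members, are given. They are from RefSeq, GRCm38.p6, from 250 bases before the start to 50 after it, in the direction of the gene. The Prkca window is chr11:108343839-108344138 on the minus strand and the Prkcb window chr7:122288875-122289174 on the plus strand. Capitals mark matches, on either strand, to any of 4 motifs. The RUNX core was searched as TGTGGT. The GATA motif was searched as NGATAA with A or T in the first place. The E-box was searched as CAGCTG, which reads the same on both strands. The PU.1-type core was searched as GAGGAA. None of the motifs overlaps another.
Prkca: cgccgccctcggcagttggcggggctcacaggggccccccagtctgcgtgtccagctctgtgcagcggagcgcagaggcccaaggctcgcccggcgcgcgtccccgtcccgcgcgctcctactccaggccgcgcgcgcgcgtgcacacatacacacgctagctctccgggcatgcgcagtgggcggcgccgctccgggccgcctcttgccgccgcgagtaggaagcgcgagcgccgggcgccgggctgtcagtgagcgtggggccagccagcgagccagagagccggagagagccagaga
Prkcb: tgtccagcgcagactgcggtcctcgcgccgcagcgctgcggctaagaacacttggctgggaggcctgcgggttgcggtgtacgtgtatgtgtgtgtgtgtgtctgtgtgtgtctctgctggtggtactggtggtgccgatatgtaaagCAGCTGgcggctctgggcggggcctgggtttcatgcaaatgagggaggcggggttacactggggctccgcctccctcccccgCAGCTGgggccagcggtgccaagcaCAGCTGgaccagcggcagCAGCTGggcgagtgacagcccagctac
The Prkcb window holds 4 copies of CAGCTG, starting at -102, -20, 6 and 24 relative to the start. Of all 32851 windows of this length, 16.3% hold at least 1 copy and 9 windows (0.0274%) hold at least 4. That cutoff of 4 was set by the Prkcb window itself, after 4 motifs were searched in 14 windows of the family. The share makes no allowance for that search. A Prkcd window, not shown, holds 2 copies of CAGCTG. The Prkca window holds none of the 4 motifs. Its base composition is 75.3% G and C with 42 CpG pairs, against medians of 52.7% and 7 over all windows. A match is a description of letters and says nothing of binding.

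Among calcium-independent isoforms, Prkcd and Prkce lay higher in all deleted libraries by modest amounts. Prkcd encodes PKCδ, a kinase of myeloid cells tied to apoptosis and to the oxidative burst (ENSMUSG00000021948.14; chromosome 14, 30595354 to 30626210, minus strand). Prkcd had 394 CPM in deleted 2, 462 in deleted 4 and 634 in deleted 6, against 289 and 333 CPM in wild-type 1 and 3. Deleted 6 was the highest, and the lowest deleted library stood above both wild-type libraries. edgeR put Prkcd at a log2 fold change of 0.68 ± 0.28 (SE), adjusted p 0.350, or 0.47 ± 0.16 with deleted 6 left out, adjusted p 0.100. In limma-voom with quality weights it was 0.55 (adjusted p = 0.0482). Prkce encodes PKCε, a kinase of macrophage and mast cell activation (ENSMUSG00000045038.13; chromosome 17, 86167785 to 86657919, plus strand). It was at 1.94, 1.66 and 2.83 CPM in deleted libraries and at 1.04 and 1.117 CPM in wild-type, 0.99 ± 0.42 on the log2 scale (SE; adjusted p = 0.355), or 0.75 ± 0.36 with deleted 6 left out, at 0.234. An unclassified gene on the same strand shares exon bases with Prkce.

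Macrophage markers were mixed in deleted 6, the library with the highest CPM of Prkcd, Prkce, Prkch, Prkci and Prkd3. In TPM only Prkcd and Prkch of these were highest there, with Prkcd at 275 TPM against 273 TPM in deleted 4. The list of 11 monocyte and macrophage markers found summed to 1610, 3337 and 4204 CPM in deleted 2, 4 and 6 and to 2242 and 2558 CPM in wild-type. Cd68, a lysosomal protein of macrophages, was at 2451 CPM in deleted 6 and between 482 and 967 CPM elsewhere, and no marker of the list was at 0 counts in any library. Of the 11 markers, 3 were highest in deleted 6 (Adgre1, Csf1r and Cd68) and 6 were lowest there. The sums without Cd68 were 1113, 2370 and 1753 CPM in deleted 2, 4 and 6 and 1760 and 2053 CPM in wild-type 1 and 3. Their part in the values of these PKC and PKD genes was not tested. In bulk RNA, more cells of a type and more RNA per cell cannot be told apart.

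Prkch separated deleted 6 from the rest and not the labels. It encodes PKCη, known in epithelia and in haematopoietic cells (ENSMUSG00000021108.16; chromosome 12, 73584796 to 73778185, plus strand). Prkch had 14.8 CPM in deleted 2, 26.9 in deleted 4 and 52.8 in deleted 6, against 17.1 and 23.3 CPM in wild-type 1 and 3. The groups overlapped, since deleted 2 was the lowest library and deleted 6 the highest. Its log2 difference was 0.64 ± 0.57 (SE) at an edgeR adjusted p of 0.586, and 0.05 ± 0.31 at 0.937 with deleted 6 left out; in lane 4 alone the sign turned, to -0.15.

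Prkcq was near absent in wild-type and in deleted 6 and present in deleted 2 and 4. It encodes PKCθ, best known at the T cell synapse (ENSMUSG00000026778.12; chromosome 2, 11172108 to 11301222, plus strand). It had 493, 218 and 6 counts in deleted 2, 4 and 6 and 5 and 1 counts in wild-type 1 and 3, which is 8.64, 4.11 and 0.136 CPM and 0.121 and 0.0180 CPM. Deleted 6 lay above wild-type 1 by less than the value of a single count, so its separation from wild-type rests on deleted 2 and 4. For Prkcq edgeR gave 5.98 ± 2.04 (log2, SE) at an adjusted p of 0.299, and leaving out deleted 6 gave 6.61 ± 0.75 at 0.00361. Without deleted 2 or without deleted 4 the gene no longer passed the filter on low counts. In lane 4 alone it was 8.31 (adjusted p = 0.0436), a fit in which the single wild-type library is assumed to have the scatter of the deleted ones.

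Mast cell markers were high in the same libraries as Prkcq, deleted 2 and 4. All 12 mast cell markers, Kit among them, were called higher without deleted 6, where 7.89% of all genes were called higher. Across all 5 libraries 0 of the 12 were called. The list summed to 12615, 5642 and 38.8 CPM in deleted 2, 4 and 6 and to 90.3 and 140 CPM in wild-type. Cpa3, the mast cell carboxypeptidase, was at 5961, 2357 and 23.1 CPM in the deleted libraries and at 9.64 and 15.7 CPM in wild-type. Mrgprb2, a receptor of connective tissue mast cells, was at 0 counts in deleted 6 and in both wild-type libraries. Their part in the Prkcq values was not tested. The T cell receptor chains Cd3e and Cd3g were at 0 counts in all 5 libraries and Cd3d was at 0.0482 CPM or less. The T cell list of 11 summed to 46.0, 108 and 115 CPM in the deleted libraries and to 44.8 and 54.5 CPM in wild-type, most of it Cd28. The 2 genes with mean log2 CPM of at least 3 whose profiles lay closest to Prkcq were F2r, a thrombin receptor, and Cd200r3, a receptor of mast cells and basophils. Their centred log2 CPM profiles differed from that of Prkcq by root mean squares of 0.68 and 0.73 over the 5 libraries.

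The 300 bases at the Prkcq start are given because this gene had the largest fold change of the members (chr2:11172132-11172431, plus strand, RefSeq GRCm38.p6, marked as above).
Prkcq: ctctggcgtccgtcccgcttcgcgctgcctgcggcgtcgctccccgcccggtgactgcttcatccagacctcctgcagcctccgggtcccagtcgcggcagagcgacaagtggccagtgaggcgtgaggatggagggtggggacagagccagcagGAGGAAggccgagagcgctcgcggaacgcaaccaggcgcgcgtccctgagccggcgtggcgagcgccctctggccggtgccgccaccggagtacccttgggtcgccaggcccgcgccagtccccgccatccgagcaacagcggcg
It holds 1 PU.1-type match, at -95, as do 28.3% of all windows, and no match to the GATA letters, which 18.6% of all windows hold.

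The atypical isoforms differed from each other. Prkci, which encodes PKCι, a kinase of cell polarity (ENSMUSG00000037643.13; chromosome 3, 30995747 to 31052959, plus strand), had the smallest fold change of the members in the fit of all 5 libraries, though not without deleted 6. Prkci had 60.6 CPM in deleted 2, 66.4 in deleted 4 and 74.4 in deleted 6, against 71.6 and 71.3 CPM in wild-type 1 and 3. In CPM both wild-type values thus fell inside the range of the deleted ones. TPM, which uses no TMM factors, separated the groups, though the share of all genes that did so was not counted. Prkci was there at 39.7, 39.1 and 32.2 TPM in deleted 2, 4 and 6. Wild-type 1 and 3 were higher, at 45.7 and 46.6 TPM. Prkci stood at -0.09 ± 0.17 (log2, SE) with an edgeR adjusted p of 0.794, or -0.16 ± 0.13 at 0.498 once deleted 6 was left out. With total counts in place of TMM it was -0.31 ± 0.19, at an edgeR adjusted p of 0.506.

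Prkcz was the one member with lower CPM in every deleted library than in both wild-type libraries. It encodes PKCζ, the other atypical kinase (ENSMUSG00000029053.15; chromosome 4, 155260129 to 155361361, minus strand). It had 2, 3 and 1 counts in deleted 2, 4 and 6 and 23 and 64 counts in wild-type 1 and 3, which is 0.0350, 0.0566 and 0.0226 CPM and 0.554 and 1.15 CPM. No deleted library held more than 3 counts, and the groups did not overlap. The log2 fold change was -4.39 ± 0.64 (SE), with an unadjusted p of 0.000885 and an adjusted p of 0.133 in edgeR. It was -4.16 ± 0.72 without deleted 6 (adjusted p = 0.0148), and between -4.82 and -3.76 with any 1 library left out. Under the stricter filter on low counts the gene was not tested. Its closest profiles were Slc4a8, a bicarbonate transporter, and Slc28a2, a nucleoside transporter, with root mean square differences of 0.31 and 0.36.

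RefSeq lists 3 Prkcz starts, and the gene counts do not tell their transcripts apart. The upstream window (chr4:155361379-155361678) is the most upstream of them and holds none of the motifs. The middle window (chr4:155345740-155346039), not shown, holds 1 CAGCTG, at 39. The third, at chr4:155344700-155344999 on the minus strand, is given because it holds 2 RUNX matches, at -204 on the opposite strand and at -120. Of all windows 16.8% hold at least 1 RUNX match, and the share that hold 2 was not counted. A Prkd3 window, not shown, also holds a RUNX match, at 44 on the opposite strand.
Prkcz upstream: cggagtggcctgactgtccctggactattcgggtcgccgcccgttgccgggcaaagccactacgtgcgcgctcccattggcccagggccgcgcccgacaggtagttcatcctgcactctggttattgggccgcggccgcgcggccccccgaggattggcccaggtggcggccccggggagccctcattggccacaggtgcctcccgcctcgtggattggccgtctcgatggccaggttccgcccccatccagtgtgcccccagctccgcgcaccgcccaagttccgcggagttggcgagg
Prkcz downstream: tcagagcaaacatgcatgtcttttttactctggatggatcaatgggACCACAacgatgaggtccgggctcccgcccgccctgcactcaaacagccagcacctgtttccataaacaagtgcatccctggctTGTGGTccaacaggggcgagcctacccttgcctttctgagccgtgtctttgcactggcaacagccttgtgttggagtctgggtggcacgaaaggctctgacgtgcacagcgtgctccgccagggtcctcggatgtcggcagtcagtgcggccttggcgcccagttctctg

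Neither PKD member separated the labels in CPM. Prkd2, the PKD isoform prominent in lymphoid and myeloid cells (ENSMUSG00000041187.15; chromosome 7, 16842902 to 16870464, plus strand), had 74.0 CPM in deleted 2, 48.1 in deleted 4 and 19.7 in deleted 6, against 53.0 and 64.4 CPM in wild-type 1 and 3. The deleted libraries held both the highest and the lowest values. edgeR gave Prkd2 -0.31 ± 0.55 (log2, SE) at an adjusted p of 0.774; the sign turned with deleted 6 left out, to 0.07 ± 0.23 at 0.887. Prkd3 (ENSMUSG00000024070.14; chromosome 17, 78949405 to 79020816, minus strand) was at 43.5, 48.4 and 78.8 CPM in deleted libraries and at 59.9 and 70.1 CPM in wild-type. In CPM, deleted 2 and 4 lay below both wild-type libraries and deleted 6 above them. In TPM, which uses no TMM factors, all 3 deleted libraries lay below both wild-type libraries, and the share of all genes that did so was not counted. Prkd3 was there at 14.3, 14.4 and 17.2 TPM in deleted 2, 4 and 6, against 19.3 and 23.1 TPM in wild-type 1 and 3. Prkd3 was at -0.19 ± 0.31 (log2, SE; edgeR adjusted p = 0.756), or at -0.49 ± 0.15 with deleted 6 left out, at 0.0832. Prkd1 had 63, 7 and 1 counts in deleted 2, 4 and 6 and 0 in both wild-type libraries, and it did not pass the filter.

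Over the alternatives that kept both wild-type libraries, the adjusted p ran from 0.0108 to 0.386 for Prkca and from 0.00326 to 0.329 for Prkcq. It ran from 0.000128 to 0.343 for Prkcz, from 0.0482 to 0.517 for Prkcd and from 0.0676 to 0.470 for Prkcb. Fits with 1 wild-type library, which assume that it has the scatter of the deleted ones, are left out of these ranges. For Prkce, Prkch, Prkci, Prkd2 and Prkd3 the lowest values over all alternatives were 0.138, 0.333, 0.433, 0.432 and 0.0832. None of these was called under any alternative run.

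**Figure D3:**
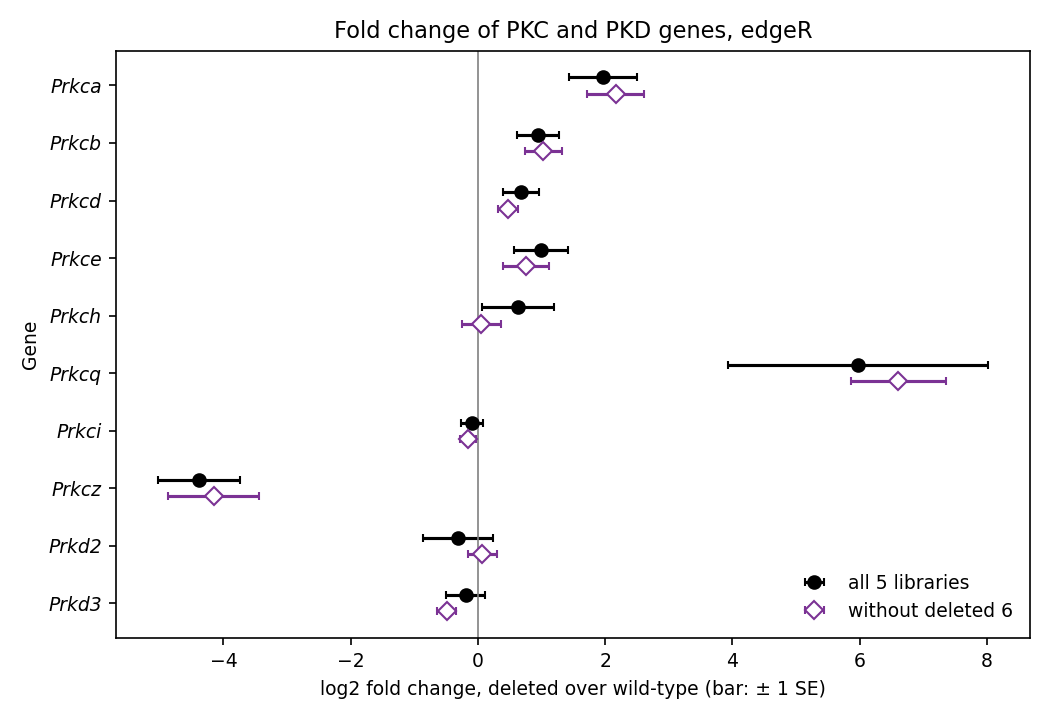
Log2 fold change, deleted over wild-type, of the 10 members, with bars of 1 SE, for all 5 libraries (filled circles) and without deleted 6 (open diamonds). Prkcq, at 5.98 and 6.61, and Prkcz, at -4.39 and -4.16, lie furthest from 0, and Prkd2 changes sign between the fits.

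Genes that act with PKC and PKD were mixed in direction, list by list. edgeR called no gene of these lists across all 5 libraries, as it called 0 of all 16120. At an unadjusted p under 0.05, where 9.44% of all genes were higher and 5.42% lower, 1 of 16 genes for maturation, docking and shut-off was higher and 0 lower. It was Phlpp1, a phosphatase that removes activating phosphates from PKC and AKT, at 13.7, 16.3 and 43.6 CPM in deleted libraries and 7.09 and 7.10 CPM in wild-type. Phlpp1 differed by 1.79 ± 0.60 (log2, SE; adjusted p = 0.293), or by 1.09 with deleted 6 left out, where it was called at 0.0202. In that fit 1 of these 16 genes was called higher and 0 lower, where 7.89% of all genes were called higher and 5.07% lower. Rictor, the mTORC2 subunit needed for PKC priming, was at 0.30 ± 0.16 and Phlpp2 at -0.82 ± 0.43 (adjusted p = 0.423 and 0.417). Without deleted 6 they were at 0.33 and -0.81 (adjusted p = 0.181 and 0.278).

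Of 13 tested substrates at the membrane and cytoskeleton, an unadjusted edgeR p under 0.05 was found for 4 that were higher and 2 that were lower. Of all genes, 9.44% were higher and 5.42% lower at that p. Plek, pleckstrin, the major PKC substrate of platelets and also found in leukocytes, had 420 CPM in deleted 2, 577 in deleted 4 and 1050 in deleted 6, against 195 and 212 CPM in wild-type 1 and 3 (log2 fold change 1.74 ± 0.46; adjusted p = 0.236), or 1.30 without deleted 6 (adjusted p = 0.00782). Akap12, a scaffold that PKC phosphorylates, was at 1.66, 1.59 and 0.905 CPM in deleted libraries and at 8.58 and 15.3 CPM in wild-type (-3.10 ± 0.45; adjusted p = 0.133), or -2.86 without deleted 6 (adjusted p = 0.00440). Both had groups that did not overlap. Without deleted 6, 1 of the 13 was called higher and 1 lower, where 7.89% of all genes were called higher and 5.07% lower. Nrgn, a calmodulin-binding substrate of neurons, stayed under 0.6 CPM throughout, at -2.52 ± 0.72 (adjusted p = 0.260), or -2.08 without deleted 6 (adjusted p = 0.0575). Megakaryocyte and platelet markers, which can carry Plek, summed to 365, 526 and 556 CPM over 10 genes in deleted libraries and to 85.8 and 78.1 CPM in wild-type, with Gp6 at 0 counts in deleted 2 and 6. In deleted 6, where Plek was highest, 3 of the 10 (Itgb3, Pf4 and Vwf) made up 555 CPM of the sum, and 5 markers lay below both wild-type libraries. Without these 3 genes the sums were 83.8, 26.2 and 1.15 CPM in deleted 2, 4 and 6 and 3.13 and 4.32 CPM in wild-type 1 and 3. Their part was not tested.

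The CARD, BCL10 and MALT1 genes, which carry PKC signals to NF-κB, had 1 of 13 higher and 0 lower at an unadjusted edgeR p under 0.05. Of all genes, 9.44% were higher and 5.42% lower at that p. That gene was Card14, a scaffold with a CARD domain, at 0.701, 0.698 and 2.08 CPM in deleted libraries and at 0 and 0.0901 CPM in wild-type. Its log2 difference was 4.51 ± 1.25 (SE; adjusted p = 0.251), and 3.76 without deleted 6, where it was called higher (adjusted p = 0.0429). In that fit 1 of the 13 was called higher and 0 lower, where 7.89% of all genes were called higher and 5.07% lower. Bcl10, at 0.34 ± 0.15, and Ikbkg, at 0.52 ± 0.23, had adjusted p of 0.372 and 0.360, and both were at 0.36 without deleted 6 (adjusted p = 0.120 and 0.142). Of 12 partners of atypical PKC 3 were higher and 0 lower at the same p. Sqstm1, the p62 scaffold that binds atypical PKC and cargo of autophagy, had 1281 CPM in deleted 2, 1436 in deleted 4 and 1627 in deleted 6, against 410 and 333 CPM in wild-type 1 and 3. All 3 deleted libraries lay above both wild-type libraries, with a log2 fold change of 1.96 ± 0.28 (adjusted p = 0.133), or 1.88 without deleted 6 (adjusted p = 0.00203). Pard3, a polarity scaffold, and Wwc1, known as KIBRA, were at 5.13 ± 1.07 and 2.86 ± 0.63 (adjusted p = 0.182 and 0.192), both at low levels of at most 2.56 CPM. Without deleted 6 both were called higher, at 4.20 and 2.37 (adjusted p = 0.0121 and 0.0236). In that fit 4 of the 12 partners were called higher and 0 lower, beside the same shares of all genes, 7.89% and 5.07%.

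Of 13 partners and substrates of PKD 2 were higher and 1 lower at an unadjusted edgeR p under 0.05. Of all genes, 9.44% were higher and 5.42% lower at that p. Cttn, cortactin, an actin regulator that PKD phosphorylates, was at 64.4, 58.6 and 109 CPM in deleted libraries and at 8.56 and 11.01 CPM in wild-type, a log2 fold change of 2.98 ± 0.38 (adjusted p = 0.131), or 2.66 without deleted 6 (adjusted p = 0.000967). Kidins220, a membrane scaffold first found as a PKD substrate, was at 183, 185 and 223 CPM in deleted libraries and at 94.7 and 111 CPM in wild-type (0.94 ± 0.20; adjusted p = 0.184), or 0.85 without deleted 6, where it was called higher. Hdac9, a class IIa histone deacetylase, was at -1.65 ± 0.59 (adjusted p = 0.311), or -1.33 without deleted 6 (adjusted p = 0.0914). Without deleted 6, 2 of these 13 genes were called higher and 0 lower, where 7.89% of all genes were called higher and 5.07% lower. Of 8 tested genes for other diacylglycerol receptors with a C1 domain 2 were higher and 1 lower at the same unadjusted p. They were Chn1 at 3.37 ± 0.74, Cdc42bpb at 1.67 ± 0.60 and Cdc42bpg at -1.17 ± 0.34 (adjusted p = 0.191, 0.313 and 0.268). Chn1 had only 36, 22 and 12 counts in deleted 2, 4 and 6 and 1 and 3 counts in wild-type 1 and 3. Without deleted 6, Chn1 was called higher at 3.62 (adjusted p = 0.0240) and Cdc42bpb at 0.98 (adjusted p = 0.0431), while Cdc42bpg was at -1.09 (adjusted p = 0.0724). In that fit 3 of the 8 were called higher and 0 lower, beside the same shares of all genes. Medians of the 6 lists ran from -0.20 for the membrane substrates to 0.35 for the partners of atypical PKC, beside 0.01 for all genes. The sign of 2 medians turned with a library left out: maturation genes to 0.14 without deleted 6, and PKD partners to 0.03 without deleted 4 or wild-type 3.

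**Figure D4:**
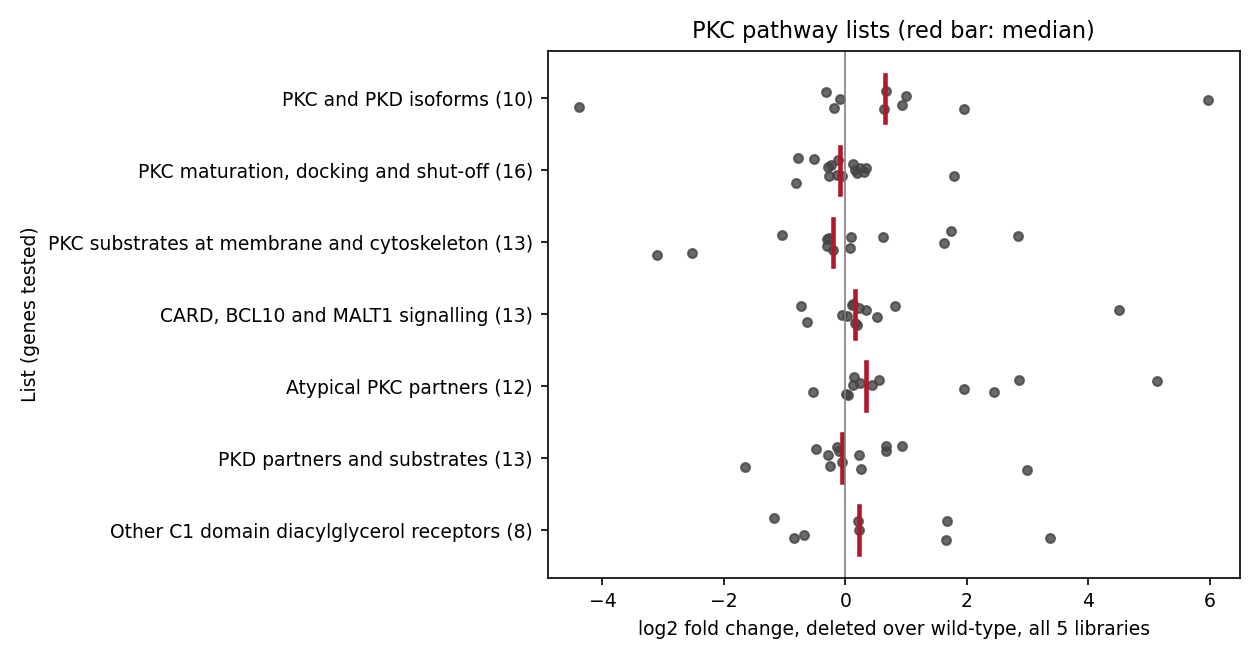
Log2 fold change, deleted over wild-type, of each tested gene among the 10 members and in 6 lists of related genes, with a red bar at the median and the number of genes tested in brackets. The medians of the 6 related lists lie between -0.20 and 0.35, the median of the members at 0.66, and single genes reach 5.98 (Prkcq) and -4.39 (Prkcz).

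Profiles across libraries placed the other members beside different genes. Prkca lay closest to Rgs12, a regulator of G protein signalling, at a root mean square difference of 0.09 on the log2 scale over the 5 libraries, and next to Cish, a cytokine-induced inhibitor of signalling, at 0.22. Prkcb lay closest to Heatr5a and Acss2, at 0.18 and 0.19. Prkch lay closest to Slfn2 and Acp2, at 0.06 and 0.08, and Prkd2 to I830077J02Rik and Nfil3, at 0.07 and 0.08. Prkcd lay closest to 4930503L19Rik and Vezt, both at 0.03, and Prkce to Sertad1 and Zxdc, both at 0.07. Prkci lay closest to Txndc15 and Aptx, both at 0.03, and Prkd3 to 2810021J22Rik and Sirt4, both at 0.05. The nearest genes came from 9074 candidates, and with 5 libraries many genes share a profile.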

How the data were processed

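Libraries were made with SMART-Seq v4 and Nextera XT kits, per the labels' protocols; these kits do not mark strand. The tools that the submitters' processing notes name are STAR, bcl2fastq 1.8.4 and DESeq2 1.12.4, with the mm10 build. How reads were assigned to genes is not stated in the labels. The authors deposited whole-number read counts of 46603 genes per library, and a table of normalized signal for 27526 genes, which equals the counts divided by 1 size factor per library and gave symbols. Coordinates and lengths are from GENCODE M21 on GRCm38, the build of mm10.

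Counts were kept with filterByExpr (16120 genes), scaled by TMM and tested by quasi-likelihood in edgeR (edgeR 4.0.16, limma 3.58.1, R 4.3.3) on genotype, with Benjamini-Hochberg adjustment over all genes and a call at 0.05. The SE of a log2 fold change was taken from F as |log2 fold change| / √F. Reads without a feature (5.89% to 8.09% of a library) and other rows that name no gene stayed out. TPM are counts over exon-union length, rescaled. The test was checked on simulated counts. No library was a copy of another (chi-square per gene of 44.7 or more). Alternatives were DESeq2 1.42.0, limma-voom, RLE factors, total counts, no filter, a filter of 1 CPM in 2 libraries, each library left out, and lane 4 alone. Members, lists and markers were chosen with earlier results of these data known. From each related list the 3 genes with the smallest p are named; some genes of the lists are not reported here. Gene profiles were compared among genes with mean log2 CPM of at least 3. The lists are maturation, docking and shut-off; membrane and cytoskeletal substrates; CARD, BCL10 and MALT1; atypical PKC partners; PKD partners; other C1 domain receptors; and marker lists for mast, T, B and myeloid cells, platelets and cell division.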

Additional observations from a re-analysis of the deposited data

How the results depend on the processing

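edgeR called 0 genes with RLE factors, with total counts, with the stricter filter, and with deleted 2, deleted 4, wild-type 1 or wild-type 3 left out. Calls were 927 genes higher and 492 lower with DESeq2, 1230 and 947 with limma-voom, 163 and 115 with no filter on low counts, and 211 and 131 in lane 4 alone. With 1 library left out at a time, calls ran from 0 to 1245 genes higher and from 0 to 800 lower, the upper ends being without deleted 6. Among PKC and PKD genes the calls higher were 2 with DESeq2, 2 with limma-voom and 1 in lane 4, and 0 to 2 with a library left out. The calls lower were 1 with DESeq2, 1 with limma-voom and 1 with no filter, and 0 to 1 with a library left out. The log2 fold change turned to -0.15 for Prkch in lane 4 alone and for Prkd2 ran from -0.79 to 0.069 with a library left out; none of these was called. All other alternatives run kept the direction of each member tested, including total counts, which moved the median of all genes to -0.19. With the longest transcript as length, the share of the sum of 11 genes in deleted libraries was 5.33% for Prkci and 0.126% for Prkce, beyond the spread of the main values; the other 9 shares stayed within it. The cause was not tested. No paired analysis was possible because the deleted replicates (2, 4 and 6) and the wild-type replicates (1 and 3) share no number. Prkcz and wild-type Prkcq rest on few counts, which limits their fold changes. The same holds for related genes such as Chn1, Card14 and Pard3 in wild-type.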
